A study of Mus musculus with 14 samples.

Results

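The enzymes of mitochondrial fatty acid oxidation were followed across sorted germinal centre (GC) B cells of 2 genotypes and 2 GC zones. The genes were taken by name from the pathway, and the choice was made with earlier results of these data known. Of 9 listed, 8 (Cpt1a, Cpt2, Acadm, Acadl, Acadvl, Hadh, Hadhb and Etfa) had a row among the 9969 genes of the table of unique molecular identifier (UMI) counts. Hadha is not analysed here. All 8 passed the filter on low counts and were tested with 7999 genes in all.

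Cells came from popliteal lymph nodes of C57BL/6 mice, each a chimera of 50% wild type (WT) and 50% SykY317F cells, immunized with NP-KLH, a hapten on a carrier protein, 14 days earlier. SykY317F is a form of Syk, the kinase that relays antigen receptor signals, with a tyrosine changed to phenylalanine. Both genotypes therefore matured in the same kind of host, and the GC B cells of each were sorted into dark zone (DZ) and light zone (LZ) cells. There were 14 libraries, with 4 from each zone for WT and 3 from each zone for SykY317F. Whether libraries of the same group are from different mice is not in the labels, so p-values measure the spread between these libraries, which may be technical.

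Fatty acids enter mitochondria as carnitine esters. Cpt1a makes the ester at the outer membrane and is the step at which entry is regulated, and Cpt2 turns it back into acyl-CoA inside. Acyl-CoA dehydrogenases then open each round of oxidation, with Acadvl acting on very long, Acadl on long and Acadm on medium chains. Their electrons pass to the electron transfer flavoprotein, of which Etfa encodes the alpha subunit. Hadha and Hadhb form the trifunctional protein that completes the round for long chains, and Hadh is the dehydrogenase of the third step for shorter chains. In a GC, the DZ holds dividing cells whose antibody genes mutate, and the LZ is where antigen and T cell help select among them, and GC B cells have been described as users of fatty acid oxidation.

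Depth set the precision. The SykY317F LZ libraries were the 3 shallowest, with totals of 149641 to 379125 UMIs, and the other 11 held 381954 to 1767898 UMIs. These 3 libraries and SykY317F DZ replicate 4 gave 9.37 to 15.8 UMIs per 100 reads, and the other 10 gave 33.5 to 53.2. Levels are given as CPM, the usual depth-scaled unit, here the UMIs of a gene over those of all tested genes after TMM scaling. At these depths 3 UMIs were worth 8.95, 16.9 and 18.8 CPM in SykY317F LZ, and 1.73 to 8.29 CPM elsewhere. The 5 light zone markers (Cd83, Cd86, Cd40, Cd72 and Myc) summed to between 796 and 1458 CPM in the DZ libraries and between 1580 and 2434 in the LZ libraries of both genotypes. The 3 dark zone markers Cxcr4, Gcsam and Ccnb1 summed to 320.3 to 532 CPM for DZ and 184 to 210 for LZ in WT, without overlap. Between the SykY317F zones they overlapped, at 367 to 492 CPM for DZ and 275 to 559 for LZ. Of 11 B cell and GC markers, 10 had a row, and they summed to between 6164 and 11458 CPM in every library.

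Summed over the 8 enzymes, WT libraries stood at 464 ± 28.5 CPM for DZ and at 395 ± 34.0 for LZ (SD, n = 4 for both). SykY317F libraries stood at 454 ± 51.2 CPM for DZ and at 284 ± 52.6 for LZ (SD, n = 3 for both). Each SykY317F LZ library (254, 254 and 345 CPM) lay below every other library, whose lowest value was 358. This separation was lost with library totals alone as the scaling. There SykY317F LZ replicate 4 (55 of 148642 tested UMIs) lay above WT LZ replicate 1 (326 of 960254). The 3 lowest sums rest on 85, 45 and 55 UMIs, and the members differed in how they varied. Taken singly, Etfa was the only member whose SykY317F LZ libraries all lay below every other library, as 3.09% of tested genes did. SykY317F LZ was on the lower side of WT LZ for 6 members and on the higher side for Acadvl and Hadh. How often sums of other genes separate in this way was not tested. In bulk samples of this kind, fewer cells of a type and less RNA per cell cannot be told apart.

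**Figure D1:**
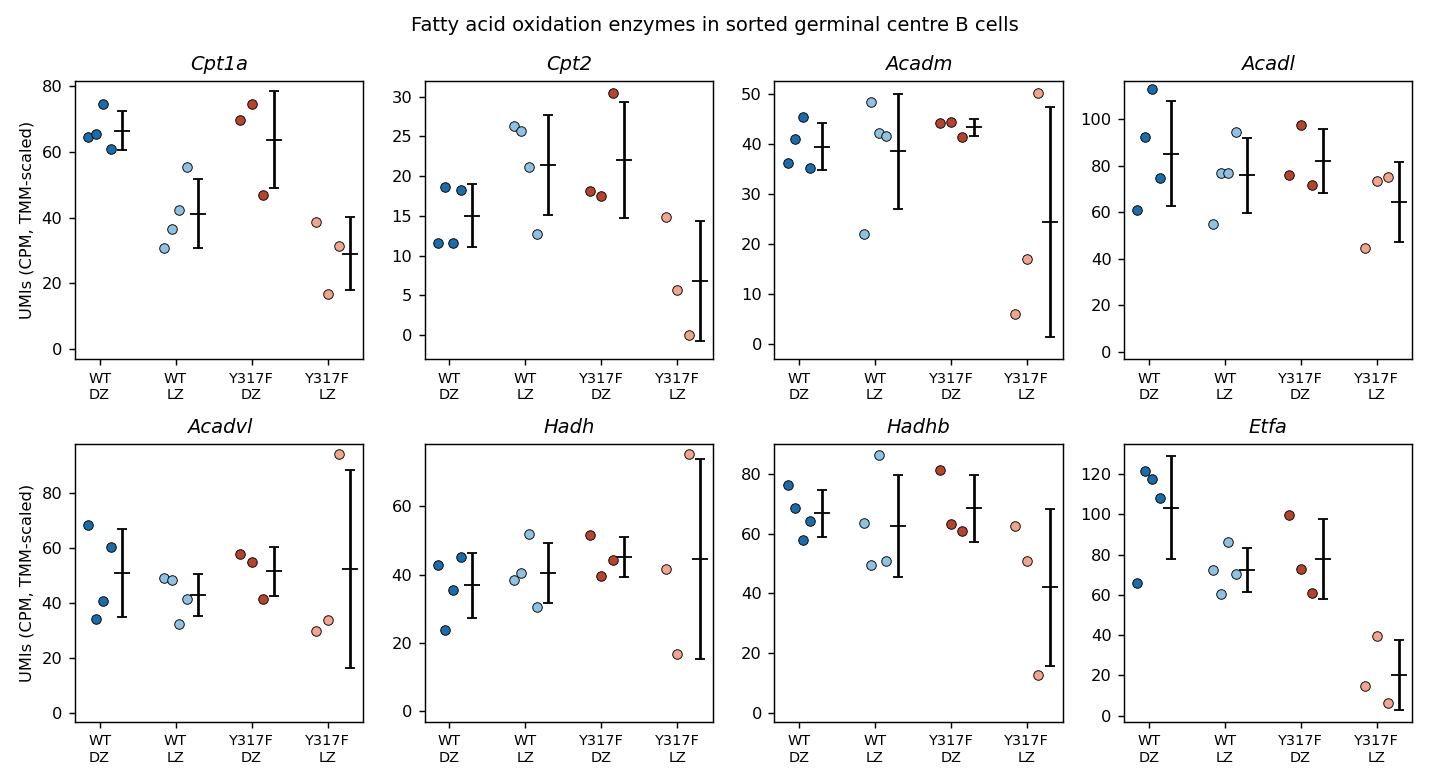
Level of each of the 8 enzymes in each library (y axis, UMIs as TMM-scaled CPM) by genotype and zone (x axis, Y317F for SykY317F). Each point is a library, and the black bars give mean ± SD over 4 libraries (WT) or 3 (SykY317F). The 3 SykY317F LZ libraries for Etfa, between 6.27 and 39.5 CPM, lie below all other libraries, while Acadl overlaps across all groups.

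Etfa was lower in LZ than in DZ over both genotypes, by a log2 fold change of -1.26 ± 0.26 (SE), or 2.4-fold (edgeR, adjusted p = 0.0178). It was the only member past the threshold in any of the 7 comparisons by this test. That was 1 of 8 members, where 1.43% of all tested genes passed in this comparison and 0.875% passed as lower. Etfa (ENSMUSG00000032314.14) lies on chromosome 9, 55454508 to 55512243 on the minus strand (GRCm38), and overlaps no other annotated gene.

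In WT DZ, Etfa was measured at 66.0, 122, 117 and 108 CPM in replicates 2, 3, 4 and 5. In WT LZ it was at 72.4, 60.3, 86.4 and 70.4 CPM in replicates 1, 2, 3 and 5. WT DZ replicate 2 lay within the LZ range and the other 3 DZ libraries lay above it. In SykY317F DZ it was at 99.5, 72.6 and 60.8 CPM, and in SykY317F LZ at 14.9, 39.5 and 6.27 CPM, in replicates 1, 2 and 4. The SykY317F zones did not overlap, and neither did the genotypes in LZ.

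By order of mean level, Etfa stood at 103 ± 25.5 CPM in WT DZ, 77.6 ± 19.8 in SykY317F DZ, 72.4 ± 10.7 in WT LZ and 20.2 ± 17.2 in SykY317F LZ (mean ± SD, n = 4, 3, 4 and 3). The first 3 of these groups overlapped each other. All 3 SykY317F LZ libraries lay below all 11 others, a pattern that 3.09% of the tested genes had. These SykY317F LZ values rest on 5, 7 and 1 UMIs. Their exact Poisson 95% intervals, which cover counting error only, ran from 4.85 to 34.8, from 15.9 to 81.4 and from 0.159 to 34.9 CPM. The second of these overlaps the intervals of all 4 WT LZ libraries, and the other 2 end below the lowest bound there, 46.1 CPM.

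Taken apart by genotype, the zone difference of Etfa did not pass. In WT it was -0.53 ± 0.28 on the log2 scale (edgeR, adjusted p = 0.628), and in SykY317F it was -1.997 ± 0.448, or 3.99-fold lower (adjusted p = 0.111). SykY317F against WT was -0.39 ± 0.30 in DZ (adjusted p = 0.9999) and -1.86 ± 0.44 in LZ (adjusted p = 0.123). The difference between both zone effects was -1.47 ± 0.54 (adjusted p = 0.991). Without SykY317F LZ replicate 2, the highest of its group, these values were -2.77 for the SykY317F zones, -2.62 for SykY317F against WT in LZ and -2.24 for the gap between both zone effects (edgeR, adjusted p = 0.0870, 0.205 and 0.469). With read counts the SykY317F zone difference was -1.27 (edgeR, adjusted p = 0.133). The comparisons that use SykY317F LZ share the same 3 shallow libraries.

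DESeq2's Wald test called Etfa for the zones in SykY317F (log2 fold change -2.02, adjusted p = 0.0231), for the genotypes in LZ (-1.86, adjusted p = 0.0274) and for the genotypes averaged over zones (-1.12, adjusted p = 0.0308). In the authors' deposited table, Etfa had a log2 fold change of -2.02 with adjusted p = 0.0304 for SykY317F LZ against SykY317F DZ, -1.86 with adjusted p = 0.0539 for SykY317F LZ against WT LZ, and -0.54 with adjusted p = 0.598 for the WT zones. Read counts in place of UMI counts gave a smaller averaged zone difference of -0.80 ± 0.25, which did not pass (edgeR, adjusted p = 0.136). Read counts scaled to library totals (RPM) put Etfa at 15.9 to 34.9 in SykY317F LZ and at 43.4 to 82.5 in SykY317F DZ. The SykY317F LZ values came from 38, 74 and 33 reads on 5, 7 and 1 UMIs, and reads of the same UMI are not separate counts. The call for the averaged zones also ended without SykY317F DZ replicate 1 (-1.15, adjusted p = 0.0695), without SykY317F LZ replicate 1 (-1.14, adjusted p = 0.0826) and without both libraries of the fewest UMIs (-1.45, adjusted p = 0.0753). The last of these leaves 1 SykY317F LZ library, which is assumed to vary like the other groups.

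**Figure D2:**
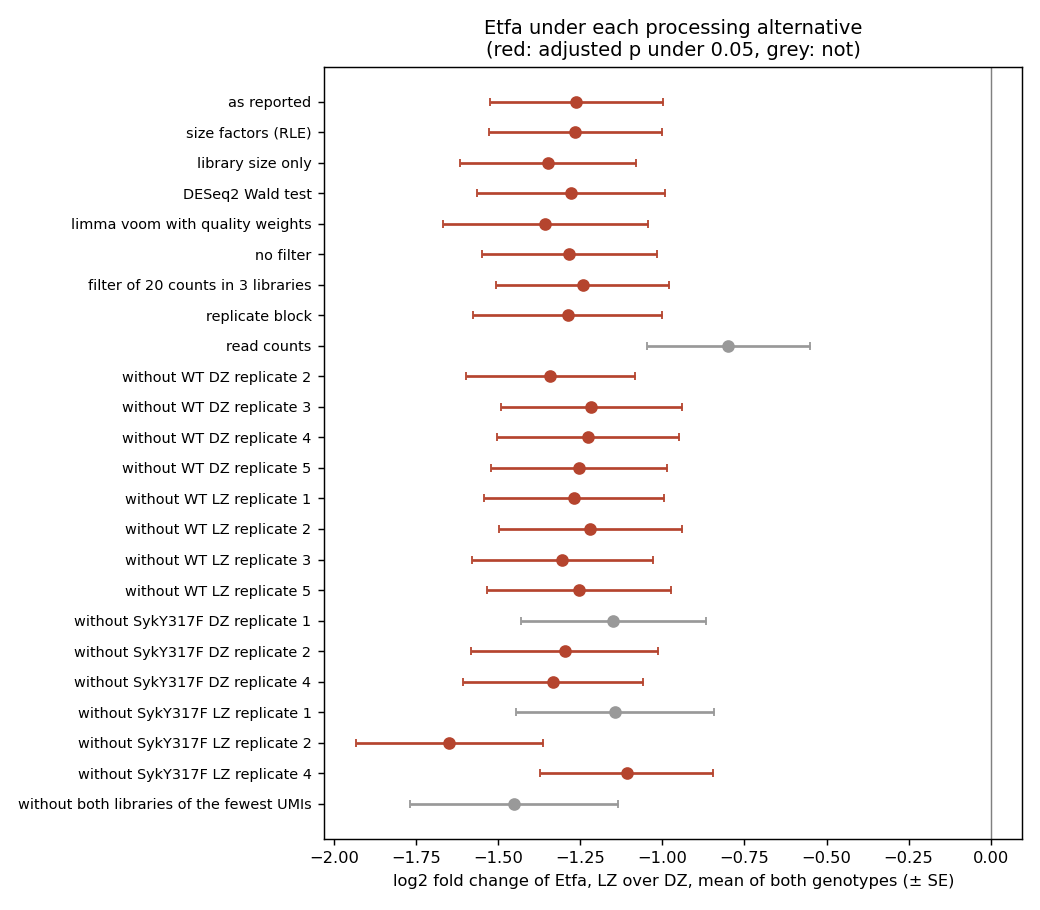
Log2 fold change of Etfa, LZ over DZ averaged over both genotypes (x axis, bars give SE), for the fit as reported and each alternative (y axis). All values lie between -1.65 and -0.80, and the 4 alternatives drawn in grey did not pass an adjusted p of 0.05.

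The partners of Etfa were looked up after its values were seen. Etfb, the beta subunit of the same flavoprotein, was at 225 ± 34.6 CPM in WT DZ, 242 ± 62.3 in WT LZ, 207 ± 56.5 in SykY317F DZ and 242 ± 4.38 in SykY317F LZ (mean ± SD, n = 4, 4, 3 and 3). Its averaged zone difference was 0.17 ± 0.18 on the log2 scale (edgeR, adjusted p = 0.715), and its genotype difference in LZ was 0.007 ± 0.26 (adjusted p = 0.999). Etfdh, the oxidoreductase that takes electrons from the flavoprotein, had an averaged zone difference of 0.19 ± 0.42 (adjusted p = 0.896) on 10 UMIs in all of SykY317F LZ. The difference between Etfa and Etfb was not tested.

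Cpt1a, the regulated entry step, had the next smallest p in the averaged zone comparison and missed the threshold, at -0.89 ± 0.23 on the log2 scale, or 1.85-fold lower in LZ (edgeR, adjusted p = 0.0551). It is on chromosome 19, 3322334 to 3385733 on the plus strand (ENSMUSG00000024900.5), with no overlapping gene. WT DZ libraries were at 64.7, 65.6, 74.8 and 60.9 CPM (replicates 2, 3, 4 and 5), and WT LZ libraries at 30.7, 36.6, 42.2 and 55.4 CPM (replicates 1, 2, 3 and 5). The WT zones did not overlap in TMM-scaled CPM. With library totals alone they did, as WT LZ replicate 5 (96 of 1587405 tested UMIs) lay above WT DZ replicate 5 (97 of 1759125). Cpt1a was the only member without overlap in CPM between the WT zones, where 2.88% of tested genes had LZ below DZ without overlap.

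SykY317F DZ libraries had 69.7, 74.7 and 47.0 CPM of Cpt1a and SykY317F LZ libraries 38.8, 16.9 and 31.4 CPM, in replicates 1, 2 and 4. These zones did not overlap either. The LZ values rest on 13, 3 and 5 UMIs. The zone difference was -0.67 ± 0.26 in WT (edgeR, adjusted p = 0.429) and -1.10 ± 0.37 in SykY317F (adjusted p = 0.335), so the lower level in LZ was seen on the same side in both genotypes without passing in either. Genotypes differed by -0.03 ± 0.28 in DZ (adjusted p = 0.9999) and by -0.45 ± 0.36 in LZ (adjusted p = 0.721).

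Over the alternatives, the averaged zone difference of Cpt1a stayed between -1.07 and -0.70. It passed with DESeq2's Wald test (-0.89, adjusted p = 0.0269), without WT DZ replicate 5 (-0.90, adjusted p = 0.0454) and without WT LZ replicate 5 (-0.99, adjusted p = 0.0332), the last 2 with edgeR. Over all genes these called 235 of 7999, 152 of 7887 and 138 of 7848. With read counts the averaged zone difference of Cpt1a was -0.77 ± 0.23 (edgeR, adjusted p = 0.115). Read counts scaled to library totals, without TMM, overlapped between the WT zones, as UMIs scaled that way did. They were at 45.1 to 66.4 RPM for DZ and 21.8 to 52.1 RPM for LZ.

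**Figure D3:**
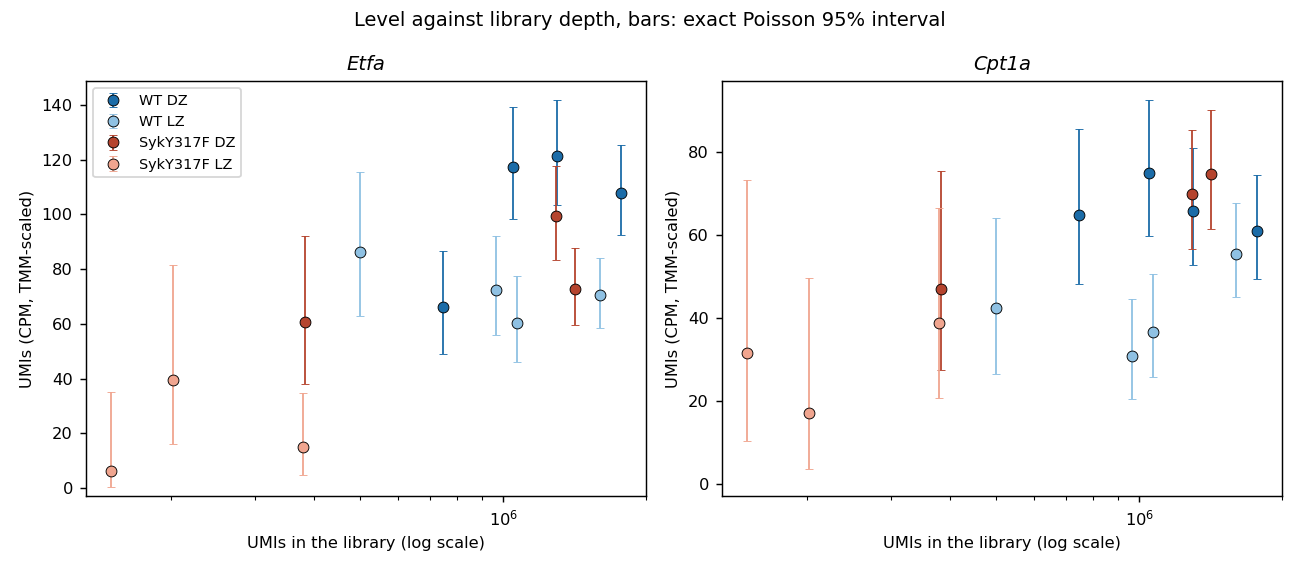
Level of Etfa and Cpt1a (y axis, TMM-scaled CPM, bars give exact Poisson 95% intervals) against the UMIs in each library (x axis, log scale), coloured by group. The 3 SykY317F LZ libraries are the shallowest 3 and hold the lowest Etfa values, between 6.27 and 39.5 CPM, while for Cpt1a they lie at 16.9 to 38.8 CPM beside WT LZ libraries at 30.7 to 55.4.

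The promoter windows of Etfa and Cpt1a are shown because these 2 members had the smallest p between zones. Each runs from 250 bases before to 50 bases from the RefSeq transcript start (GRCm38.p6), and capitals mark AGGTCA, the core hexamer of nuclear receptor elements, on either strand. The Cpt1a window is chr19:3323051-3323350 on the plus strand and the Etfa window chr9:55512194-55512493 on the minus strand, each written 5′ to 3′ along its gene.
Cpt1a: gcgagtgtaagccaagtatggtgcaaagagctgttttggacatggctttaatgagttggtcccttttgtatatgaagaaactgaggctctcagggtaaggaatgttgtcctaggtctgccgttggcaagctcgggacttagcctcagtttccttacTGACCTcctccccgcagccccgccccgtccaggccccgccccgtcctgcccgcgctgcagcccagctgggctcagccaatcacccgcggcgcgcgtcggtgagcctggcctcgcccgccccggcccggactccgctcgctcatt
Etfa: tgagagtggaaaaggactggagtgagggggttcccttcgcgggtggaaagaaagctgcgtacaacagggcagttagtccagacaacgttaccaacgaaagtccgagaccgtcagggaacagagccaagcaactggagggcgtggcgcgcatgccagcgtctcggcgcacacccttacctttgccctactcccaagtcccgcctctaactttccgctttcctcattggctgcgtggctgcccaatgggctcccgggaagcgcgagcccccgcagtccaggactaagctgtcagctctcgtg
All 9 listed genes had a window, among them Hadha, whose counts are not analysed here. The Hadha and Hadhb windows share 228 bases, so the 9 are not all separate sequences. The hexamer occurred in 3 of the 9 (Cpt1a, at 94 bases before the start, Acadm and Acadvl), against 16.26% of 32851 promoter windows, and not in the Etfa window. The full direct repeat bound by PPAR with RXR, in which 2 copies of AGGTCA are spaced by 1 base of any kind, was in 0 of the 9 and in 0.04% of all windows. The extended hexamer TCAAGGTCA of the estrogen-related receptors was in 0 of 9 against 0.42%. The NRF1 palindrome, GCGCA and GCGC with 1 base of any kind between them (4.6% of all windows), and the E-box CACGTG (7.15%) were also in 0 of 9. Matches were searched on both strands, and the hexamer is part of the repeat and of the extended form. They describe these letters in these windows and nothing about binding. The GC content was 62.3% for Cpt1a and 60.3% for Etfa, against a median of 52.7%.

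Cpt2, the inner membrane partner of Cpt1a (chromosome 4, 107903981 to 107923610), was at 11.7, 18.6, 11.6 and 18.2 CPM in WT DZ (replicates 2, 3, 4 and 5) and at 26.3, 25.7, 21.1 and 12.7 CPM in WT LZ (replicates 1, 2, 3 and 5). The WT zones overlapped, with a log2 difference of 0.48 ± 0.41 (edgeR, adjusted p = 0.800). In SykY317F DZ it was at 18.1, 17.5 and 30.4 CPM, and in SykY317F LZ at 14.9, 5.64 and 0.0 CPM. The SykY317F zones did not overlap, with a log2 difference of -1.30 ± 0.66 (adjusted p = 0.525). The LZ libraries held 5, 1 and 0 UMIs, and a count of 0 in the third allows up to 18.8 CPM, which is above the SykY317F DZ values of 18.1 and 17.5. Cpt2 had the largest difference of zone effects among the members, -1.78 ± 0.78, and it did not pass (edgeR, adjusted p = 0.999). With each library left out in turn, the SykY317F zone difference of Cpt2 ran from -2.78 (without SykY317F LZ replicate 1) to -0.89 (without SykY317F LZ replicate 4), and the difference of zone effects from -3.26 to -1.36. Without both libraries of the fewest UMIs these were -0.49 and -0.99.

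The acyl-CoA dehydrogenases gave no call. Acadm (chromosome 3, 153922357 to 153944632) was at 39.5 ± 4.70 CPM in WT DZ, 38.5 ± 11.5 in WT LZ and 43.4 ± 1.66 in SykY317F DZ (SD, n = 4, 4 and 3). In SykY317F LZ the libraries had 5.97, 16.9 and 50.2 CPM, from 2, 3 and 8 UMIs, so replicate 4 was the highest of all 14 libraries and replicate 1 the lowest. Its zone difference was -0.03 ± 0.34 in WT and -1.04 ± 0.52 in SykY317F (edgeR, adjusted p = 0.993 and 0.508). Without SykY317F LZ replicate 4 the SykY317F value was -2.10, and over the libraries left out in turn it ran from -2.10 to -0.42.

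Acadl (chromosome 1, 66830839 to 66863277) overlapped across all 4 groups. WT DZ ranged from 60.8 to 113 CPM, WT LZ from 54.9 to 94.7, SykY317F DZ from 71.9 to 97.5 and SykY317F LZ from 44.8 to 75.3. The averaged zone difference was -0.29 ± 0.21 (edgeR, adjusted p = 0.569). Acadl holds a processed pseudogene, Gm15793, on its own strand, so its counts are uncertain where reads could be shared.

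Acadvl (chromosome 11, 70010183 to 70015411) was at 51.0 ± 16.1 CPM in WT DZ, 43.0 ± 7.74 in WT LZ, 51.6 ± 8.87 in SykY317F DZ and 52.6 ± 36.0 in SykY317F LZ (mean ± SD, n = 4, 4, 3 and 3). The wide last group comes from 29.8, 33.9 and 94.1 CPM, on 10, 6 and 15 UMIs. Its averaged zone difference was -0.16 ± 0.26 (edgeR, adjusted p = 0.840). Acadvl overlaps Dvl2 on the other strand, and whether counting used the strand is not given in the sources used here, so its counts are uncertain.

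The later steps of the round gave no call. Hadhb (chromosome 5, 30155248 to 30184593) was at 66.7 ± 7.80 CPM in WT DZ, 62.6 ± 17.1 in WT LZ and 68.5 ± 11.2 in SykY317F DZ, with 62.7, 50.8 and 12.5 CPM in the SykY317F LZ libraries. The lowest value, in replicate 4, rests on 2 UMIs. Its averaged zone difference was -0.37 ± 0.24 (edgeR, adjusted p = 0.509). Hadh (chromosome 3, 131233419 to 131272101) was at 36.8 ± 9.57 CPM in WT DZ, 40.3 ± 8.77 in WT LZ, 45.2 ± 5.98 in SykY317F DZ and 44.7 ± 29.3 in SykY317F LZ (mean ± SD, n = 4, 4, 3 and 3). Hadh was the member with the smallest averaged zone difference, 0.03 ± 0.26 (adjusted p = 0.981), and its SykY317F LZ libraries spanned 16.9 to 75.3 CPM.

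Counted over the members, LZ against DZ was on the lower side for 6 of 8 in WT, with a median log2 fold change of -0.14 and 0 past the threshold. By edgeR, 0.188% of all tested genes passed there, and 51.7% were on the lower side with a median of -0.02. Cpt1a was the 1 member with an unadjusted p under 0.05, as 8.48% of all genes were. Neither DESeq2 (97 of 7999 genes called) nor limma voom (295 genes) called any member. In SykY317F, 8 of 8 were on the lower side, with a median of -0.83, against 53.3% of all genes and a median of -0.04. There edgeR called 0 members (0.0375% of all genes), and 2 members (Cpt1a and Etfa) had an unadjusted p under 0.05 (10.3% of all genes). For these zones DESeq2 called 1 member (42 of 7999 genes) and limma voom 0 (3 genes). The members whose zones did not overlap there were Cpt1a, Cpt2 and Etfa, 3 of 8, where 8.5% of tested genes had LZ below DZ without overlap.

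**Figure D4:**
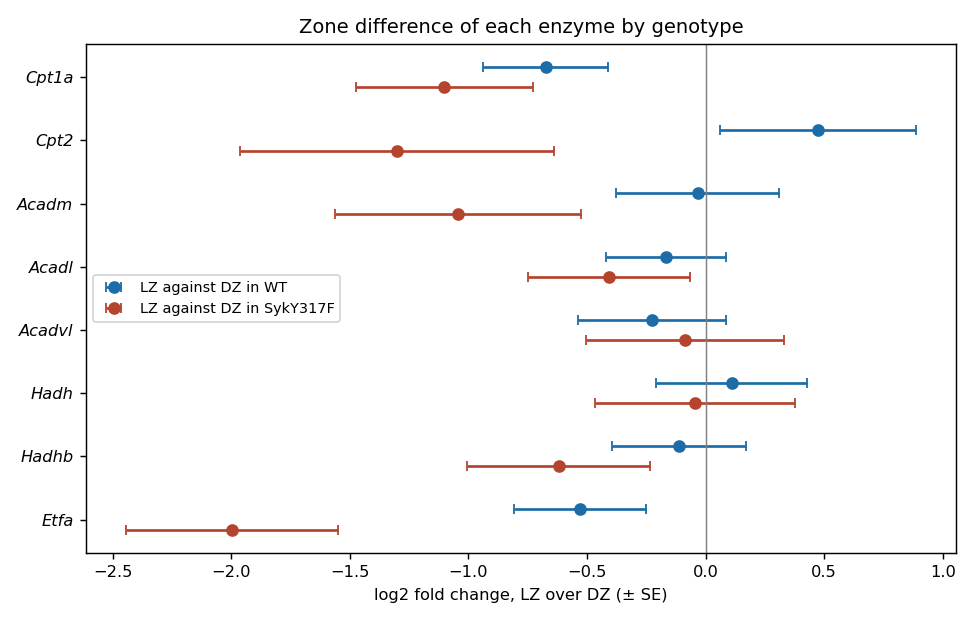
Log2 fold change of each enzyme, LZ over DZ (x axis, bars give SE), in WT (blue) and SykY317F (red). Etfa and Cpt1a are below 0 in both genotypes, and Cpt2 is at 0.48 in WT and -1.30 in SykY317F. None of these single values passed an adjusted p of 0.05.

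Averaged over genotypes, 7 of 8 were on the lower side, as 53.7% of all genes were, with a median of -0.39 against -0.03 for all genes. Hadh, the exception at 0.03, also moved to the lower side with scaling by library size only. Etfa was the 1 member called by edgeR (1.43% of all genes), and Cpt1a and Etfa had an unadjusted p under 0.05 (14.3% of all genes). DESeq2 called both (235 of 7999 genes) and limma voom Etfa alone (227 genes).

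SykY317F against WT gave no member by edgeR in either zone, where 0.0% of all tested genes passed. In DZ, 5 of 8 members were on the higher side and 3 on the lower, where 55.0% of all genes were lower. The values ran from -0.39 (Etfa) to 0.46 (Cpt2), with a median of 0.05 against -0.04 for all genes. Of the members, 0 had an unadjusted p under 0.05 (3.81% of all genes). DESeq2 called 0 members (2 of 7999 genes) and limma voom 0 (4 genes). With scaling by library size only, Cpt1a also moved to the higher side in DZ. The genotypes overlapped in DZ for all 8 members, where 2.31% of genes were lower and 3.56% higher without overlap. In LZ, 6 of 8 were on the lower side, as 54.0% of all genes were, with a median of -0.45, against -0.06 for all genes. Etfa was the 1 member with an unadjusted p under 0.05 (9.81% of all genes) and the 1 whose genotypes did not overlap, as 6.66% of genes did on the lower side. DESeq2 called that 1 member (43 of 7999 genes) and limma voom 0 (0 genes). Averaged over zones, 6 of 8 were lower, as 55.3% of all genes were, with a median of -0.22 against -0.05 for all genes. For this average edgeR called 0 members (0.0% of all genes). Etfa had an unadjusted p under 0.05 there (10.1% of all genes). It was called by DESeq2 (47 of 7999 genes) but not by limma voom (4 genes).

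The difference of zone effects between genotypes called no member and 0.0% of all genes by edgeR. It was negative for 7 of 8 members and for 53.7% of all genes, with a median of -0.47 against -0.05 for all genes. Cpt2 and Etfa had an unadjusted p under 0.05 (4.8% of all genes). DESeq2 and limma voom called 0 members as well. In simulated counts for this comparison, with 7752 genes run, 26 of 100 genes changed 4-fold and 2 of 100 changed 2-fold were recovered. A zone difference that departs 2-fold between genotypes was thus mostly not detectable at this depth. For LZ against DZ averaged over genotypes, 38 of 100 genes changed 2-fold and 81 of 100 changed 4-fold were recovered, with 7734 genes run.

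Markers of other cells overlapped between some of the same groups and not between others, and no test was run on them. The 9 macrophage and other myeloid markers, all with a row, summed to between 264 and 556 CPM in SykY317F DZ and between 50.7 and 124 in SykY317F LZ, against 91.9 to 397 in WT DZ and 59.5 to 161 in WT LZ. The 6 T cell markers with a row, of 8 listed, summed to between 77.7 and 185 CPM in SykY317F DZ, 47.8 to 130 in SykY317F LZ, 20.9 to 50.7 in WT DZ and 55.7 to 145 in WT LZ. The 4 plasma cell markers with a row, of 5, summed to between 267 and 1228 CPM in WT DZ and 218 to 573 in WT LZ, and to between 441 and 910 in SykY317F DZ and 310 to 715 in SykY317F LZ. In SykY317F LZ, Sdc1, a defining plasma cell marker, had 0 UMIs, and no other of these markers was at 0 over a group. Of 5 stroma and endothelium markers, 1 had a row, at 29.1 to 54.3 CPM in WT DZ, 63.3 to 83.0 in WT LZ, 35.9 to 93.5 in SykY317F DZ and 53.7 to 176 in SykY317F LZ. Their part in the enzyme values was not tested.

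No other gene of fatty acid metabolism that was listed passed the test by edgeR. Of 126 further genes of fatty acid uptake, oxidation, regulation, synthesis and general mitochondrial function, 87 were tested. In edgeR 0 of the 87 passed in each of the 7 comparisons, with 10 at an unadjusted p under 0.05 for the averaged zones. DESeq2 called 1 of the 87, for the genotypes averaged over zones (47 of 7999 genes), and limma voom called 0.

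Among other mitochondrial oxidation genes, 19 of 28 were tested, with 11 higher and 8 lower in LZ over both genotypes (median 0.09, against -0.03 for all genes). Pcca, a subunit of propionyl-CoA carboxylase, had -0.58 ± 0.37, and Acadsb, the short and branched chain acyl-CoA dehydrogenase, 1.17 ± 0.52 on 9 UMIs in SykY317F LZ (edgeR, adjusted p = 0.487 and 0.308). Acad10, a further member of the dehydrogenase family, had 0.44 ± 0.39 (adjusted p = 0.653). Mut had 37 UMIs in WT DZ, 24 in WT LZ, 22 in SykY317F DZ and 0 in SykY317F LZ. For uptake and activation, 11 of 19 genes were tested and 6 were on the higher side (median 0.14). Acsl5, which activates long-chain fatty acids to acyl-CoA, had -0.53 ± 0.27 and Lipe, a lipase that releases fatty acids from stores, 0.50 ± 0.27 (adjusted p = 0.378 and 0.399). Pnpla2, the lipase that starts the breakdown of stored fat, had -0.33 ± 0.21 and Fabp5, a fatty acid binding protein, 0.76 ± 0.46 (adjusted p = 0.495 and 0.458).

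Peroxisomal oxidation had 9 of 14 tested genes on the higher side (median 0.19). Phyh, the hydroxylase that opens the breakdown of phytanic acid, had -0.40 ± 0.22, and Crot, which passes shortened chains to carnitine for export to mitochondria, -0.64 ± 0.54 on 4 UMIs in SykY317F LZ (edgeR, adjusted p = 0.425 and 0.641).

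Regulators were split, with 7 of 14 tested genes on each side (median 0.03). Ppard, a fatty acid receptor that drives oxidation genes, had 0.70 ± 0.42, and Prkab2, a subunit of the energy sensor AMPK, -1.48 ± 0.66 on 2 UMIs in SykY317F LZ (edgeR, adjusted p = 0.458 and 0.308). Ncor1, a corepressor of nuclear receptors, had -0.50 ± 0.31 and Stk11, a kinase that activates AMPK, 0.25 ± 0.21 (adjusted p = 0.471 and 0.622).

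Fatty acid synthesis had 7 of 11 on the higher side (median 0.13). Acaca, which makes malonyl-CoA, the inhibitor of Cpt1a, had 0.98 ± 0.34 and Slc25a1, the mitochondrial citrate exporter, 0.68 ± 0.21 (edgeR, adjusted p = 0.168 and 0.130). On the lower side, Fads1, a desaturase, had -0.83 ± 0.52 and Elovl5, an elongase, -0.63 ± 0.41 (adjusted p = 0.485 and 0.495). General mitochondrial genes had 13 of 18 on the lower side (median -0.16), with Vdac2, an outer membrane channel, at -0.43 ± 0.18 and Mdh2, a citrate cycle enzyme, at -0.39 ± 0.18 (adjusted p = 0.270 and 0.325). On the higher side, Timm44, a part of the inner membrane import motor, was at 0.55 ± 0.27 and Hspe1, a mitochondrial chaperonin partner, at 0.25 ± 0.23 (adjusted p = 0.363 and 0.668). For SykY317F against WT in LZ, Hspe1 was at 0.80 ± 0.32 (adjusted p = 0.413).

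The members varied together only in part. Over the 14 libraries, 17 of 28 pairs had a Pearson r of log2 CPM above 0, with a median of 0.26 and a range from -0.53 (Acadvl with Hadhb) to 0.83 (Cpt2 with Hadhb). These points share library depth, and the lowest libraries hold few UMIs of each member. Etfa had r = 0.77 with Hadhb, 0.71 with Cpt2 and 0.56 with Cpt1a, and Acadm had r = 0.73 with Acadl.

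The non-member genes most like the mean standardised level of the 8 enzymes were Zfp422 (r = 0.94), Rpl15 (0.92), Yipf5 (0.92), Mtfr1 (0.91) and Rbm12b2 (0.90), over 14 libraries. All 5 had between 0 and 2 UMIs in the SykY317F LZ libraries together. For Zfp422 there were 94 UMIs in WT DZ, 56 in WT LZ, 56 in SykY317F DZ and 0 in SykY317F LZ. The 3 shallow libraries thus hold the lowest counts of these genes and the lowest TMM-scaled summed level of the enzymes. Rpl15 is a ribosomal protein gene with near-identical pseudogene copies, so its counts are uncertain.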

How the data were processed

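UMI counts per gene symbol (9969 genes, 14 libraries, not normalized) are as the authors deposited them, from a variation of MARS-seq on mRNA captured with oligo(dT), per the labels' protocols. Because such libraries tag transcript ends, counts are not divided by gene length. Tools named in the submitters' processing notes are cutadapt, STAR 2.4.2a, HTSeq, DESeq2 and DESeq, with build mm10 and no role or order. The authors' log2 fold changes, p-values and normalised signal per gene are deposited in the same table. A second deposited table holds read counts.

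Here genes were filtered with filterByExpr, then edgeR 4.0.16 in R 4.3.3 fitted a robust quasi-likelihood model of the 4 groups after TMM scaling. Benjamini-Hochberg adjustment covered all tested genes, threshold 0.05. DESeq2 1.42.0, limma voom 3.58.1 with quality weights, other scalings, filters and left-out libraries were alternatives, and the fit was tested on simulated data. A sign change between values that both miss the threshold was counted apart from a reversal. Members and lists were chosen with earlier results of these data known. Named list genes have the smallest 2 p per side in the averaged zone comparison. Some genes that this rule names are not reported here. No pair of libraries in a group differed by less than sampling noise. Coordinates are GENCODE M21, and promoters are RefSeq, both GRCm38.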

Additional observations from a re-analysis of the deposited data

How the results depend on the processing

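Over 25 alternatives, 1335 member values were recomputed, and 0 that passed in either fit changed sign. Values that missed the threshold in both fits changed sign in 69 cases, the largest of them at 0.62 in the reported fit. The count of members past the threshold for the averaged zones was 1 as reported, 2 with DESeq2's Wald test, 0 with read counts, 0 without both libraries of the fewest UMIs, and between 0 and 2 over the left-out libraries. It was 0 as reported and 1 with DESeq2's Wald test for the zones in SykY317F, for the genotypes in LZ and for the genotypes averaged over zones. The cause was not tested. In all other alternatives each count was as reported. Without the 4 libraries under 400000 UMIs, an alternative chosen after seeing the data, the WT zones and the genotypes in DZ again called 0 members. With library sizes alone as the scaling, the all-gene median of the averaged zones went from -0.03 to -0.11, and Etfa there was -1.35. Over all tested genes, the averaged zones had 114 calls as reported, 235 with DESeq2's Wald test, 227 with limma voom, 49 with read counts, 17 without both libraries of the fewest UMIs and 42 to 152 over the left-out libraries. The zones in WT had 15 as reported, 97 with DESeq2, 295 with limma voom, 0 with read counts, 6 with both groups fitted alone, 9 without both libraries of the fewest UMIs, 4 without the 4 libraries under 400000 UMIs and 1 to 26 over the left-out libraries. The zones in SykY317F had 3 as reported, 42 with DESeq2, 20 with read counts, 9 with library sizes alone, 2 with no filter, 1 with both groups alone, 0 without both libraries of the fewest UMIs and 0 to 10 over the left-out libraries. Genotypes had 0 calls as reported in each zone and on average. In DZ there were 2 with DESeq2 and 4 with limma voom. In LZ there were 43 with DESeq2, 54 with read counts, 1 with library sizes alone and 0 to 5 over the left-out libraries. On average there were 47 with DESeq2, 4 with limma voom, 10 with read counts and 0 to 5 over the left-out libraries.

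With replicate number as a replicate block, the averaged zone difference of Etfa was -1.29 (edgeR, adjusted p = 0.0334), and the counts of members called stayed at 1 for the averaged zones and 0 in each other comparison. Over all genes the block gave 94 calls for the averaged zones and 1 for the zones in SykY317F. The labels do not say that a number marks a shared mouse, and of 12 libraries with a same-numbered partner in the other zone, 5 correlated best with it.

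Depth limits the SykY317F LZ values most, since 3 UMIs there stand for 8.95 to 18.8 CPM, and intervals cover counting error only.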
